A study of Mus musculus with 12 samples.

Results

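Serpinb2, Areg, Lcn2, Otor, Snx18, Lfng and Pilrb1 are 7 of the 24421 gene symbols counted by RNA-seq in RAW 264.7 cells, a macrophage line of BALB/c mice. They were picked because their response to LPS, on the log2(CPM + 1) scale, was larger in Parp14 knockout (KO) than in wild-type (WT) cells. CPM here is the reads of a gene per 1000000 reads in genes. The values of KO and WT libraries with and without LPS chose the 7 genes, so those values are given as a description, with no test.

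LPS is the bacterial lipopolysaccharide that macrophages sense through TLR4. PARP14 is an ADP-ribosyltransferase of the PARP family that is itself induced by interferon. The libraries form 6 groups of 2. Parp14 -/- cells were taken after LPS (2 h) or untreated. Wild-type cells were taken after LPS with a Jak inhibitor, after the Jak inhibitor alone, after LPS alone (2 h), or untreated. Jak kinases carry the signal of interferon and many cytokine receptors, so such inhibitors are known to block the later part of the LPS response that secreted interferon drives. All 6 groups share the cell line and medium. The number of KO clones and the inhibitor's name and dose are not stated in the labels. Nothing in the labels says that replicates were separate cultures, so the tests measure the spread between these libraries, which may be technical.

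Each library held 35940669 to 45662896 reads in genes, so 1 CPM was 35.9 to 45.7 reads. Parp14 itself averaged 37.7 CPM in LPS-treated KO cells against 367 CPM in LPS-treated WT cells, and 10.99 CPM without LPS in KO cells against 88.1 CPM in untreated WT cells. Of 10 macrophage markers 9 reached 1 CPM in 2 or more libraries, Mertk being the exception, and their summed level was 11314 to 12503 CPM in LPS-treated KO cells and 13458 to 13627 CPM in LPS-treated WT cells. Lyz2 alone averaged 6654 and 8328 CPM there, so the sum hides single markers that differ. Adgre1 averaged 70.5 CPM in KO against 175 CPM in WT cells after LPS, and 73.5 against 143 CPM untreated. Cd14 went the other way, with 2426 against 1972 CPM after LPS. Of the lists for other cell types, the neutrophil list had 1 gene above 1 CPM, Cxcr2, and the lists for lymphocytes, epithelial, stromal or endothelial cells, and chondrocytes or cochlea had none. In bulk libraries, more cells that express a gene and more RNA per cell cannot be told apart.

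The genes fall into 2 kinds. Serpinb2, Areg, Lcn2, Otor and Pilrb1 were near 0 reads in untreated WT cells and higher in both LPS libraries than in both untreated libraries of the same genotype, where 18.9% of all genes tested were higher without overlap in KO cells and 19.0% in WT cells. Snx18 and Lfng were well counted in every group and were lower, not higher, in the LPS libraries of both genotypes, where 62.8% of all genes tested were lower without overlap in KO cells and 64.5% in WT cells. They belong here because that difference was smaller in KO cells, so "induced" does not describe them. The size of the fall of Snx18 in KO cells depends on the scaling, as given below. What all 7 share in the libraries that chose them is a higher level in KO than in WT cells after LPS, with no overlap between libraries. Among all 10899 genes tested, 23.8% were higher and 25.6% lower without overlap in that comparison.

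**Figure D1:**
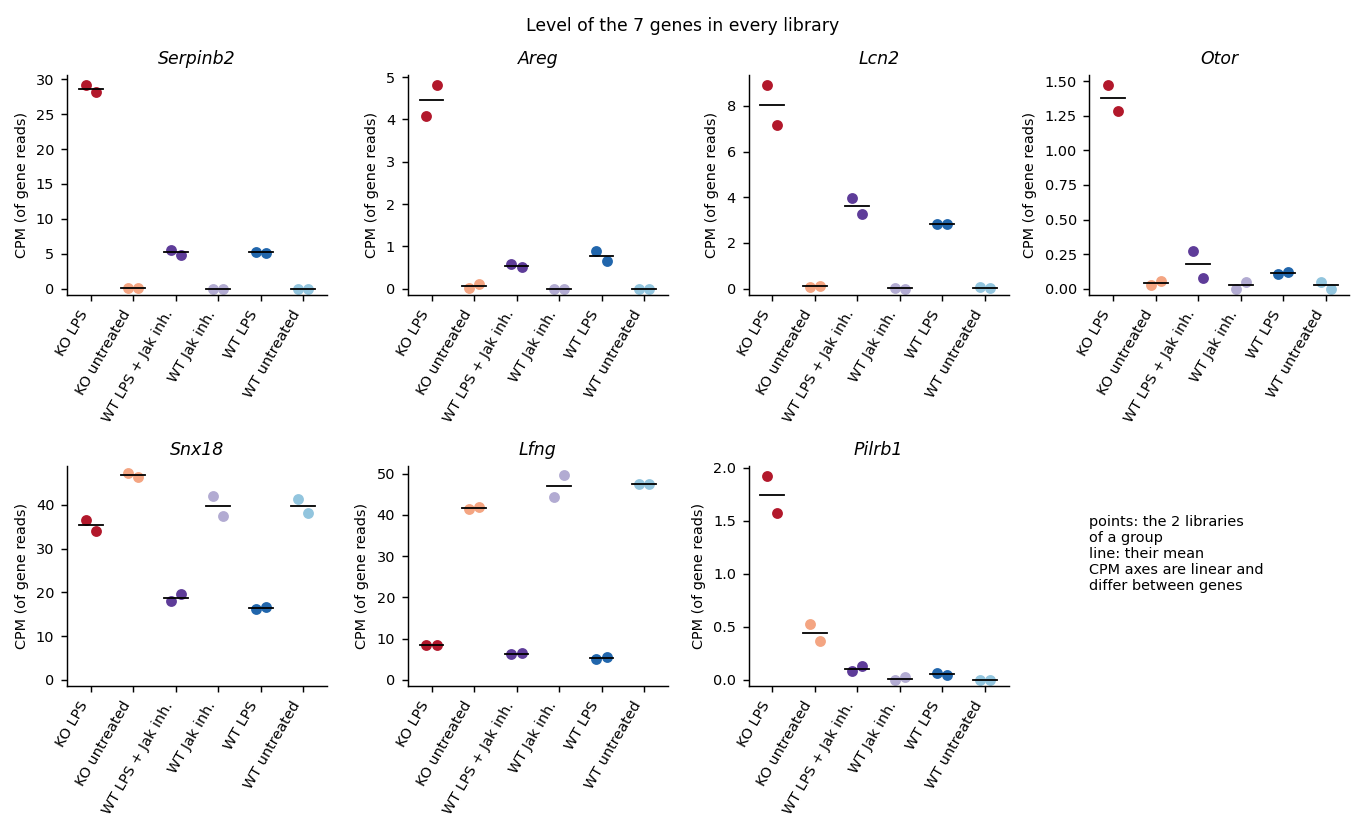
Level of each gene in CPM (linear axis, own range per gene) in the 12 libraries, by group; points are the 2 libraries of a group and the line is their mean. In all 7 panels the 2 LPS-treated KO libraries sit above the 2 LPS-treated WT libraries, and Snx18 and Lfng are higher without LPS than with it.

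Serpinb2 encodes plasminogen activator inhibitor 2, a clade B serpin that stays largely inside the cell and is known as a strongly LPS-inducible transcript of macrophages. The gene lies at chr1:107511423-107535478 on the plus strand (GRCm38) and shares 291 exonic bases with Serpinb10 on the same strand, which reached at most 0.0936 CPM in any library. Serpinb2 stood at 29.2 and 28.1 CPM in LPS-treated KO cells, against 5.23 and 5.14 CPM in LPS-treated WT cells. It had 1 and 2 reads in untreated KO cells, against 0 reads in both untreated WT libraries. With the Jak inhibitor and LPS, WT cells held 5.58 and 4.88 CPM, and with the inhibitor alone 0 reads in both libraries. The 2 LPS-treated KO libraries were thus far above every other library, while WT cells with LPS alone and with LPS plus inhibitor overlapped. The ratio of LPS-treated KO to LPS-treated WT cells was 5.51 (95% interval 4.98 to 6.11, exact, counting error only, on 2251 and 450 reads). Per kilobase of exon the level after LPS was 12.2 CPM in KO and 2.21 CPM in WT cells, and the KO value was the highest of the 7 genes in LPS-treated KO cells.

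The promoter of Serpinb2 is shown because the difference between KO and WT cells after LPS was larger for Serpinb2 than for the other 6 genes on the log2(CPM + 1) scale. The RefSeq promoter windows used here hold 300 bases, 250 before and 50 after the start (GRCm38.p6). That of Serpinb2 held the letters TGANTCA of an AP-1 element, the binding letters of Fos and Jun family dimers, which 7.29% of the 20788 windows of genes in the table also held on either strand. The 250 bases before the start (chr1:107511173-107511422, plus strand) read as follows, with the match in capitals.
Serpinb2: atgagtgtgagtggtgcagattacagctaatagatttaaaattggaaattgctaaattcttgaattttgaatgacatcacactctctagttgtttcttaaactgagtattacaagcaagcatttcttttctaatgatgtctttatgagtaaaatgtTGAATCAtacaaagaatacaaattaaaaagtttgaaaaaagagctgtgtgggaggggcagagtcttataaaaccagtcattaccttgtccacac

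Areg encodes amphiregulin, a membrane-bound ligand of the EGF receptor that is shed from the cell surface and is known for tissue repair after inflammation (chr5:91139599-91148432, plus strand). Areg was at 4.09 and 4.82 CPM in LPS-treated KO cells, against 0.898 and 0.658 CPM in LPS-treated WT cells. It had 1 and 4 reads in untreated KO cells, against 0 reads in both untreated WT libraries. WT cells given LPS and the Jak inhibitor held 0.574 and 0.517 CPM, against 0 reads in both libraries with the inhibitor alone. Both LPS-treated KO libraries were above all others, and the WT libraries with LPS and inhibitor were below those with LPS alone. The KO to WT ratio after LPS was 5.72 (95% interval 4.40 to 7.53, on 353 and 68 reads), close to that of Serpinb2.

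The promoter of Areg is shown because the gene is a known target of cyclic AMP signalling through CREB. Its window held TGACG, the core of a cyclic AMP response element (CRE), at 3 places on the 2 strands, of which a pair overlaps in a palindrome; 24.2% of the 20788 windows held at least 1 such core. The 250 bases before the start (chr5:91139349-91139598, plus strand) have the matches in capitals, with CGTCA being the same core on the other strand.
Areg: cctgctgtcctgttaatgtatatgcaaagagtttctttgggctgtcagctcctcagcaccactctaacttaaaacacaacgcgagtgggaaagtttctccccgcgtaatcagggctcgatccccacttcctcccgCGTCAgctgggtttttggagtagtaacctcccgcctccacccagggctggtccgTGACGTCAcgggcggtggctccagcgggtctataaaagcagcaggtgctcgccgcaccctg

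Lcn2 encodes lipocalin 2, a secreted protein that binds bacterial siderophores and so keeps iron from bacteria (chr2:32384633-32388252, minus strand). Lcn2 was at 8.93 and 7.16 CPM in LPS-treated KO cells, against 2.85 and 2.83 CPM in LPS-treated WT cells. It had 3 and 5 reads in untreated KO cells, against 2 and 1 reads in untreated WT cells. WT cells with LPS and the Jak inhibitor held 3.97 and 3.28 CPM, against 1 and 0 reads with the inhibitor alone. The LPS-treated KO libraries were again the highest, and here the WT libraries with inhibitor and LPS were above those with LPS alone. The KO to WT ratio after LPS was 2.81 (95% interval 2.42 to 3.27, on 627 and 246 reads), which is below the intervals of Serpinb2 and Areg. The ratio of LPS to untreated was 77.9 in KO cells (95% interval 39.3 to 181) and 75.2 in WT cells (25.4 to 367). These intervals overlap, on untreated counts of 8 reads in KO and 3 reads in WT cells. Lcn2 is also a neutrophil granule gene. Of 8 neutrophil markers 7 were in the table, and their summed level was 7.82 to 14.2 CPM in LPS-treated KO cells and 7.70 to 9.35 CPM in LPS-treated WT cells, nearly all of it from Cxcr2. Ngp and S100a9 were at 0 in every library, and Mpo and Elane reached at most 0.0244 and 0.0702 CPM.

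A stretch of the Lcn2 promoter is shown because C/EBP factors are known regulators of the gene. Its window held TTGCNCAA, the letters of a C/EBP element, which 2.80% of the 20788 windows held. The 30 bases around the match, in capitals, lie at chr2:32387937-32387966 on the minus strand. They come before the RefSeq start but lie inside the gene as GENCODE places it, whose start is at 32388252.
Lcn2: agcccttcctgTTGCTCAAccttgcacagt

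Otor encodes otoraplin, a small secreted protein of the MIA family known from the cochlea (chr2:143078473-143081713, plus strand). Otor was at 1.47 and 1.29 CPM in LPS-treated KO cells (53 and 55 reads), against 5 and 5 reads in LPS-treated WT cells. It had 1 and 2 reads in untreated KO cells, against 2 and 0 reads in untreated WT cells. WT cells with LPS and the Jak inhibitor gave 10 and 3 reads, against 0 and 2 reads with the inhibitor alone. Of the 12 libraries, the 2 LPS-treated KO libraries alone reached 1 CPM. The KO to WT ratio after LPS was 11.9 (95% interval 6.23 to 25.5, on 108 and 10 reads). Of 5 markers of chondrocytes and the cochlea, the summed level was 0.0702 to 0.111 CPM in LPS-treated KO cells and 0.122 to 0.197 CPM in LPS-treated WT cells, with Acan and Sox9 at 0 in every library.

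Pilrb1 encodes an activating member of the paired immunoglobulin-like type 2 receptors, surface proteins of myeloid cells that signal through the adaptor Tyrobp (chr5:137852147-137858106, minus strand). Pilrb1 was at 1.92 and 1.57 CPM in LPS-treated KO cells (69 and 67 reads), against 3 and 2 reads in LPS-treated WT cells. Untreated KO cells gave 21 and 14 reads, against 0 reads in both untreated WT libraries. WT cells with LPS and the Jak inhibitor gave 3 and 5 reads, against 0 and 1 reads with the inhibitor alone. All 4 KO libraries were above all 8 WT libraries. The KO to WT ratio was 29.97 after LPS (95% interval 12.5 to 93.8, on 136 and 5 reads) and at least 11.9-fold higher in KO cells without LPS, with the WT pair set at 3 reads in all. Within KO cells the ratio of LPS to untreated was 3.86 (95% interval 2.65 to 5.77).

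The antisense gene Gm36551 overlaps 97 exonic bases of Pilrb1, and without a stated strand setting reads of the 2 cannot be told apart there. Pilrb1 also has a close copy next to it, Pilrb2 (chr5:137865827-137871815, minus strand). Reads could therefore be misplaced between them, or be missing from both where they fit both. The counter set aside 28.6 to 34.9% of the alignments of a library as not unique, and these are in no gene's count. Of 2093 distinct runs of 50 bases in the Pilrb1 transcripts, 26.04% were also in those of Pilrb2 and 6.69% in those of Pilra, the inhibitory member of the pair. Pilrb2 had 73 and 67 reads in LPS-treated KO cells against 8 and 3 in LPS-treated WT cells, and 19 and 11 reads in untreated KO cells against 1 and 0 in untreated WT cells, which is the pattern of Pilrb1. With the reads of both genes summed, an alternative chosen after the data were seen, the level was 3.95 and 3.14 CPM in LPS-treated KO cells against 0.241 and 0.122 CPM in LPS-treated WT cells. Alignments set aside as not unique are not in this sum. The stretches before the 2 genes, each 193 bases long and ending where GENCODE starts the gene, differ at 3 bases, which are in capitals. They lie at chr5:137858107-137858299 and chr5:137871816-137872008, both on the minus strand.
Pilrb1: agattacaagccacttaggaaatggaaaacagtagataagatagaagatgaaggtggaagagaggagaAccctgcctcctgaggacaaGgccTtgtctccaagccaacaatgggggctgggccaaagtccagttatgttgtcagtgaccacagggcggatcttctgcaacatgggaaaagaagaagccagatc
Pilrb2: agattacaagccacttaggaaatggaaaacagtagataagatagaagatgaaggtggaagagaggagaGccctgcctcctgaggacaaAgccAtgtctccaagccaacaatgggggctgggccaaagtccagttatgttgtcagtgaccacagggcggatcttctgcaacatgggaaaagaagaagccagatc

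Snx18 encodes a sorting nexin of the SNX9 family that bends membranes in endocytosis and autophagosome formation (chr13:113592179-113618564, minus strand). Snx18 was at 36.6 and 34.1 CPM in LPS-treated KO cells, against 16.3 and 16.8 CPM in LPS-treated WT cells. Without LPS it was at 47.4 and 46.3 CPM in KO cells, against 41.4 and 38.1 CPM in WT cells. WT cells with LPS and the Jak inhibitor held 18.0 and 19.5 CPM, against 41.9 and 37.4 CPM with the inhibitor alone. The KO libraries were above the WT libraries with LPS and, by less, without it. LPS-treated cells kept 0.751 of the untreated level in KO cells (95% interval 0.715 to 0.790) and 0.416 in WT cells (0.390 to 0.443). These intervals leave out the scaling, on which the size of the fall in KO cells depends. Its log2 difference was -0.40 in the main fit, -0.13 under scaling by the median of gene ratios, -0.11 by edgeR and -0.09 by DESeq2. In WT cells these were -1.22, -0.94, -0.96 and -0.93.

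Lfng encodes Lunatic fringe, a glycosyltransferase that adds sugars to Notch receptors and so shifts which ligands they respond to (chr5:140607320-140615545, plus strand). Lfng was at 8.57 and 8.54 CPM in LPS-treated KO cells, against 5.06 and 5.56 CPM in LPS-treated WT cells. Without LPS the order was the opposite, with 41.4 and 41.9 CPM in KO cells, against 47.4 and 47.5 CPM in WT cells. WT cells with LPS and the Jak inhibitor held 6.26 and 6.54 CPM, against 44.3 and 49.7 CPM with the inhibitor alone. LPS-treated cells kept 0.205 of the untreated level in KO cells (95% interval 0.189 to 0.223) and 0.112 in WT cells (0.101 to 0.123). Lfng was the 1 gene of the 7 that was lower in untreated KO than in untreated WT cells without overlap, where 26.6% of all genes tested were lower. Higher there without overlap were 5 of the 7, namely Serpinb2, Areg, Lcn2, Snx18 and Pilrb1, against 21.4% of all genes. For Serpinb2, Areg and Lcn2 this rests on at most 5 reads in any untreated library, which is too few to set a direction.

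The other motifs searched were found for 1 gene each. NF-kB letters (GGGANNNNCC) were in the Lfng window and in 23.3% of all windows, those of an interferon-stimulated response element (TTTCNNTTTC) in the Pilrb1 window and in 3.34%, and those of a STAT-type GAS element (TTCNNNGAA) in the Serpinb2 window and in 8.01%. The Pilrb2 and Pilra windows held the same interferon-element letters as that of Pilrb1. No motif was in the windows of more than 1 of the 7 genes, and those of Otor and Snx18 held none of the 6. A match is a run of letters in these windows, not a measured binding site.

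**Figure D2:**
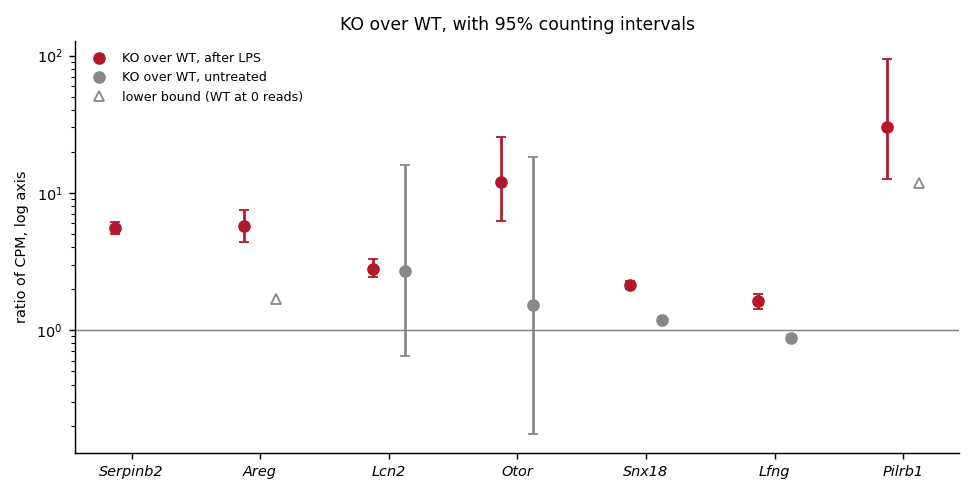
Ratio of KO to WT level for each gene (log axis), after LPS in red and untreated in grey; bars are 95% counting intervals over the summed reads of the 2 libraries and open triangles are lower bounds where WT had 0 reads. After LPS every ratio is above 1, between 1.62 for Lfng and 29.97 for Pilrb1; untreated Serpinb2 is not drawn because KO had 3 reads and WT none.

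On the log2(CPM + 1) scale the difference of the LPS response, KO minus WT, which is what the genes were chosen on, was 2.21 for Serpinb2, 1.53 for Areg, 1.14 for Lcn2, 1.07 for Otor, 0.84 for Pilrb1, 0.82 for Snx18 and 0.78 for Lfng. Standard errors were 0.11 to 0.16. Among 10899 genes tested these values stood at places 1, 3, 13, 16, 36, 40 and 48 from the top, against a median of 0.004 over all genes. They rest on the scale for 5 of the genes. A ratio of the KO to the WT response cannot be set well where untreated WT cells have 0 to 3 reads, and the 2 count-based tools gave the opposite sign for Serpinb2 (edgeR -1.14, DESeq2 -0.60), Areg (-1.78 and -1.29) and Pilrb1 (-2.19 and -1.69), and values near 0 for Lcn2 (0.12 and 0.04). Otor kept its sign, with 2.98 and 2.95, on 2 reads in untreated WT cells. Snx18 (0.84 by both tools) and Lfng (0.86 by both) gave nearly the same value on every scale. The higher level in LPS-treated KO cells than in LPS-treated WT cells did not depend on the scale: over all alternatives it lay between 2.09 and 2.46 for Serpinb2, 1.29 and 2.51 for Areg, 1.06 and 1.496 for Lcn2, 1.04 and 3.57 for Otor, 1.28 and 4.91 for Pilrb1, 0.97 and 1.10 for Snx18, and 0.50 and 0.69 for Lfng.

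**Figure D3:**
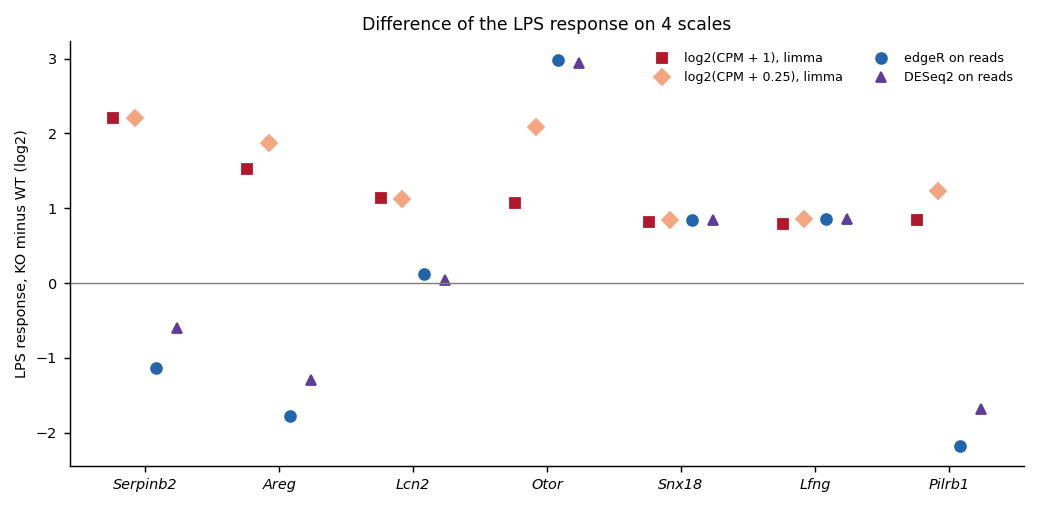
LPS response of KO minus that of WT (log2) for each gene on 4 scales, named in the legend. Serpinb2, Areg and Pilrb1 change sign between the CPM scales and the count tools, Lcn2 lies near 0 with the count tools, and Snx18 and Lfng stay between 0.78 and 0.86.

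The choice had no threshold, so no values just inside or outside it can be given. Areg, Otor and Pilrb1 passed the filter on low values, 1 CPM in at least 2 libraries, only through the LPS-treated KO libraries, so their presence among tested genes already required a high level there. Serpinb2, Lcn2, Snx18 and Lfng passed it in WT libraries as well.

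The libraries with the Jak inhibitor played no part in choosing the genes. For Serpinb2, Lcn2, Snx18 and Lfng the difference between LPS with inhibitor and inhibitor alone in WT cells does not depend on the choice. Areg, Otor and Pilrb1 entered the test only through their level in the LPS-treated KO libraries, so their presence in it does depend on the choice. The counts of called genes below include Areg. The spread used by the test of this difference, however, is shared over all 12 libraries, among them those that chose the genes. With only the groups compared in the fit, 5 of the 7 genes were called. In the test over all 12 libraries 5 of the 7 genes were called, where 64.2% of all genes tested were (limma, Benjamini-Hochberg adjusted over 10899 genes). Of the 5, 3 rose and 2 fell, where 13.5% of all genes rose and 50.8% fell. Without overlap between libraries, 5 were higher and 2 lower, where 18.4% of all genes were higher and 60.2% lower. Serpinb2 rose by 2.64 on the log2(CPM + 1) scale (SE 0.09, adjusted p = 1.2e-08), Lcn2 by 2.19 (SE 0.12, adjusted p = 2.35e-07) and Areg by 0.63 (SE 0.11, adjusted p = 0.00056). Both libraries gave the same direction for each of the 3, and Serpinb2 was at least 139-fold higher, with the inhibitor-only pair set at 3 reads in all. Lfng fell by 2.69 (SE 0.08, adjusted p = 5.69e-09) and Snx18 by 1.04 (SE 0.08, adjusted p = 2.64e-06), again in both libraries. Otor (0.19, adjusted p = 0.139) and Pilrb1 (0.13, adjusted p = 0.302) were not called at 13 and 8 reads; edgeR called both, DESeq2 called Otor, and Otor was called without the second library of LPS with inhibitor.

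The scaling sets part of the split between rises and falls. Scaling by the median of gene ratios gave a median difference over all genes of -0.03 in this comparison, where the main scaling gave -0.27. It called 2885 genes higher and 3527 lower, where the main scaling called 1466 higher and 5535 lower. The shift was 0.26 in the LPS response of KO and 0.27 in that of WT cells. Under the other scaling Snx18 fell by 0.79 and Lfng by 2.45 in the cells with inhibitor, and both stayed called. In KO cells the LPS difference of Snx18 was -0.40 under the main scaling and -0.13 under the other, and in WT cells it was -1.22 and -0.94.

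The groups with LPS and inhibitor and with LPS alone differ by the inhibitor, and the LPS-only libraries are among those that chose the genes, so their values are given side by side without a test. The ratio of LPS with inhibitor to LPS alone in WT cells was 1.01 for Serpinb2 (95% interval 0.876 to 1.15), 0.694 for Areg (0.459 to 1.04), 1.27 for Lcn2 (1.07 to 1.52), 1.14 for Snx18 (1.06 to 1.22) and 1.21 for Lfng (1.06 to 1.38). Otor (1.497, 0.607 to 3.81) and Pilrb1 (1.84, 0.532 to 7.16) had too few reads to set a direction. For the other genes the intervals cover counting error only, and replicates differed by more than sampling noise. These intervals therefore do not set a direction by themselves either. Each of these ratios is nearer to 1 than the KO to WT ratio of the same gene after LPS. The KO to WT ratios, however, are part of what the genes were chosen on. That order therefore follows in part from the choice, and no conclusion about the inhibitor is drawn from it. Lcn2, Snx18, Lfng and Pilrb1 were higher with the inhibitor without overlap (17.9% of all genes) and Areg was lower (11.9%). For Pilrb1 this was 3 and 5 reads against 3 and 2 reads, which sets no direction. By limma 0.0734% of all genes were called higher and 1.04% lower in this comparison, 1.11% in all. Parp14 itself was at 110 and 138 CPM with LPS and inhibitor, against 315 and 419 CPM with LPS alone. The inhibitor alone against untreated cells gave ratios of 0.996 for Snx18 and 0.992 for Lfng, and the other 5 genes had at most 3 reads in either group. None of the 7 was higher or lower there without overlap, where 10.1% of all genes were higher and 15.2% lower.

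**Figure D4:**
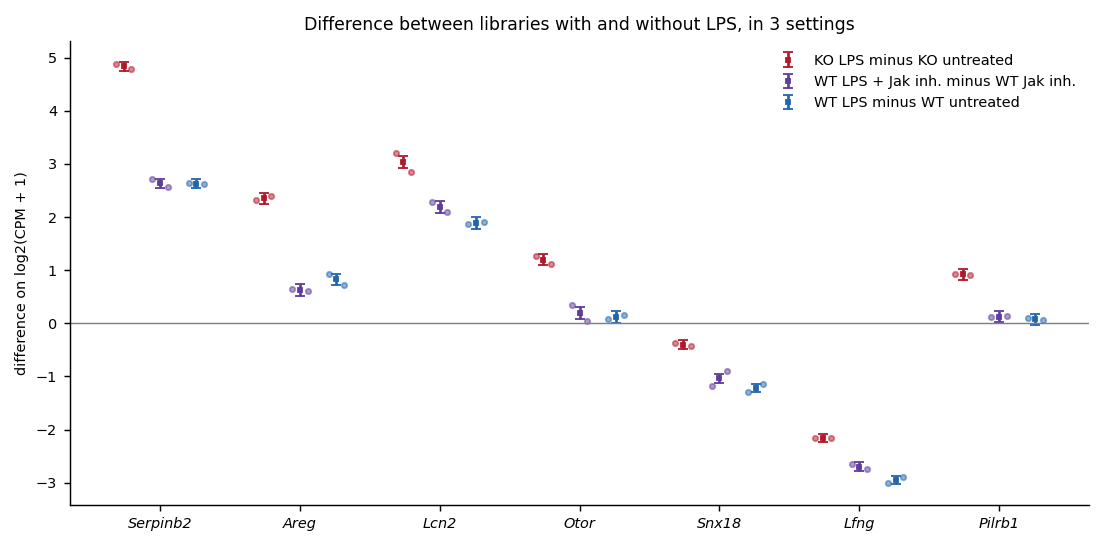
Difference between libraries with and without LPS on log2(CPM + 1) for each gene in KO cells (red), WT cells with the Jak inhibitor (purple) and WT cells (blue); squares with bars are the fitted value and its SE, and dots the 2 replicate numbers. The purple and blue values lie close together for every gene, with the red value above both. The genes were chosen for a red value above the blue one.

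The genes nearest to each other and to other genes were found by the mean absolute difference between centred log2(CPM + 1) profiles over the 12 libraries, among 9263 genes that averaged 5 CPM in a group. Nearest to Serpinb2 were Ier3 (0.32), Errfi1 (0.36), an inhibitor of the EGF receptor, Bcl6b (0.40), Mt2 (0.42), a metallothionein, and Dusp4 (0.42), a MAP kinase phosphatase. Ier3 itself had an LPS response of 4.26 in KO and 3.06 in WT cells on that scale. Nearest to Areg were Arg2 (0.17), the mitochondrial arginase, Hilpda (0.21), Tnfrsf8 (0.22), Cth (0.22) and Notch1 (0.23). Nearest to Lcn2 were the cytokine Osm (0.17), the AP-1 factor Fosl1 (0.18), Trim13 (0.20), Adora2b (0.20), an adenosine receptor, and Phldb1 (0.21).

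Otor was nearest to Zswim6, Mthfd2, Nars, Abhd17c and Asns (0.15 to 0.16), and Pilrb1 to Tmem74, Gyk, Asns, Soat2 and Mthfd2 (0.15 to 0.17). Asns and Mthfd2 are enzymes of asparagine and of mitochondrial folate metabolism, and stand in both lists. Otor and Pilrb1 reached at most 1.47 and 1.92 CPM, where this scale compresses differences, so a small distance need not mean a shared course. Asns had an LPS response of 0.78 in KO and 0.41 in WT cells, where Pilrb1 had 0.92 and 0.08. Pilrb2, with a mean of 1.80 CPM in LPS-treated KO cells, was left out by the limit of 5 CPM. Snx18 was nearest to L1cam, Stk17b, Rara, Il16 and Cdc42ep3 (0.14 to 0.15), of which Rara, a retinoic acid receptor, had an LPS response of 0.07 in KO and -1.07 in WT cells. Lfng was nearest to Pwwp2b, Hhex, Cnr2, Klf10 and Arid3a (0.12 to 0.14). Among the 7 themselves the nearest pair was Otor and Pilrb1 (0.17) and the farthest Serpinb2 and Lfng (2.98).

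Other genes of each pathway, from lists drawn up with earlier results of these data known, were tested in every comparison. Adjusted p-values in what follows are from the limma fit over 10899 genes, and counts of falls with LPS share the scaling given above. Over all genes the median difference was -0.29 for LPS in KO cells, -0.30 for LPS in WT cells and 0.002 for KO against WT cells after LPS. The difference of the LPS response was called for 1 of the listed genes, Csf3, over all 10 lists, against 0.413% of all genes tested (0.128% higher and 0.284% lower). In the fit with replicate number as a block, which called 413 genes in place of 45, it was called for more of them, as given below.

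Of 22 other clade B serpins 6 passed the filter. With LPS 3 of them fell and none rose in KO cells, where 13.9% of all genes rose and 52.7% fell, and 2 fell and none rose in WT cells (13.7% and 53.6%). Their median LPS difference was -0.25 in KO and -0.15 in WT cells. Serpinb8, whose gene is 54.5 kb from Serpinb2, fell by 0.43 with LPS in KO cells (adjusted p = 0.0319), and was at 80.1 and 67.6 CPM there against 96.1 and 104 CPM in untreated KO cells. Serpinb12, the other one named by the rule, fell by 0.82 (adjusted p = 3.19e-05). Between KO and WT cells after LPS 1 of the 6 was higher, Serpinb12 (0.38, adjusted p = 0.0233), and 1 lower, Serpinb9, a granzyme B inhibitor (-0.53, adjusted p = 0.0214), against 6.19% and 7.66% of all genes; with the block 1 was higher and 2 lower. Untreated, the same 2 genes were called in the same directions, where 4.31% of all genes were higher and 5.37% lower in KO cells, 9.68% in all.

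Serpinb2 is known to inhibit urokinase and tissue plasminogen activator. Of 10 other genes of the plasminogen system tested, 6 rose and 1 fell after LPS in KO cells and 5 rose and 2 fell in WT cells, with median differences of 0.32 and 0.29; with the block 4 fell in each. Plaur, the urokinase receptor, had 609 and 620 CPM in LPS-treated KO cells against 452 and 455 CPM in LPS-treated WT cells (0.44, adjusted p = 0.328; 0.0367 with the block). After LPS 3 were called higher in KO than in WT cells and none lower, namely F3, the tissue factor (0.50, adjusted p = 0.0102), Anxa2 and S100a10; with the block 4 were higher and 2 lower. Without LPS Anxa2 was at 386 and 389 CPM in KO against 288 and 337 CPM in WT cells. Untreated S100a10 was at 222 and 221 CPM in KO against 185 and 207 CPM in WT cells. F3 was at 0.0523 CPM or less in the untreated libraries.

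Among the ligands, receptors and sheddases of the EGF receptor family, 7 were tested besides Areg. Hbegf, another shed ligand, was at 3.64 and 5.64 CPM in LPS-treated KO cells against 1.16 and 1.15 CPM in LPS-treated WT cells, and without LPS at 0.677 and 0.784 CPM in KO against 0.177 and 0.850 CPM in WT cells. It was higher in KO cells after LPS (1.37, SE 0.25, adjusted p = 0.0062), the only call of the list in that comparison; with the block 2 were higher and 2 lower. The difference of its LPS response was 1.14 (adjusted p = 0.427; 0.00585 with the block). Rhbdf2, which guides the sheddase Adam17, rose with LPS by 2.01 in KO (adjusted p = 3.89e-07) and 1.72 in WT cells (adjusted p = 1.07e-06). In all 3 rose and 3 fell in KO cells, and 2 rose and 3 fell in WT cells (4 and 3 with the block), with median differences of 0.20 and 0.22.

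Of 14 genes of iron handling 4 rose and 4 fell after LPS in KO cells, and 3 rose and 4 fell in WT cells, with median differences of -0.08 and -0.06. Slc11a2, an iron importer, rose by 1.40 in KO (adjusted p = 8.04e-07) and 1.25 in WT cells (adjusted p = 1.69e-06). Steap3, a ferrireductase, fell by 1.17 in KO (adjusted p = 2.07e-06) and 1.06 in WT cells (adjusted p = 3.91e-06). Between KO and WT cells after LPS, Hmox1, the heme oxygenase, was higher (0.90, adjusted p = 0.000204), as was Ireb2, and Aco1 was lower. With the block 5 were higher and 5 lower. Without LPS Hmox1 was at 115 and 135 CPM in KO against 82.4 and 85.0 CPM in WT cells. Untreated Ireb2 was at 193 and 181 CPM in KO against 141 and 141 CPM in WT cells. Aco1 was then at 64.1 and 60.9 CPM in KO against 75.0 and 71.2 CPM in WT cells. None of the 14 genes was called in the difference of the LPS response. With the block 2 were, Slc11a1 (0.46, adjusted p = 0.00715) and Hmox1 (0.33, adjusted p = 0.0167).

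Nfkbiz (IkB-zeta), C/EBP factors and their known targets contain the regulators described for Lcn2. Of 12 tested, 9 rose and 1 fell after LPS in each genotype, with median differences of 3.01 in KO and 3.47 in WT cells (2 fell in KO cells with the block). Csf3 (G-CSF) was the gene of the lists called in the difference of the LPS response (1.32, SE 0.14, adjusted p = 0.00431), with 462 and 413 CPM in LPS-treated KO cells against 116 and 131 CPM in LPS-treated WT cells, and without LPS 0.752 and 0.575 CPM in KO against 0.203 and 0.150 CPM in WT cells. As with Serpinb2 its sign turned under the count tools (edgeR -0.09, DESeq2 -0.11). After LPS the KO cells had more Csf3 (1.82, adjusted p = 6.32e-06) but less Ccl2 (-3.002, adjusted p = 0.00014) and Saa3 (-0.94, adjusted p = 0.0253), so 1 of the 12 was higher and 2 lower; with the block 3 were higher and 3 lower. With the block the difference of the LPS response was called for 3. The other 2, Ccl2 and Ptges, had a smaller response in KO cells on the log2(CPM + 1) scale. Ccl2 was lower in KO cells without LPS as well, at 0.476 and 1.23 CPM against 4.74 and 6.75 CPM in WT cells. Fold changes of such low levels are understated on this scale, so the fold change of Ccl2 need not be smaller. The level of Ptges was not lower in KO cells, with 7.26 and 7.94 CPM after LPS against 6.81 and 7.80 CPM in WT cells. Without LPS it was at 1.93 and 2.12 CPM in KO against 0.837 and 0.850 CPM in WT cells.

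Of 18 tested genes known to respond to cyclic AMP and CREB, 12 rose and 3 fell after LPS in KO cells, and 12 rose and 4 fell in WT cells, with median differences of 0.72 and 0.48. Ptgs2, the inducible cyclooxygenase, was at 1756 and 2115 CPM in LPS-treated KO cells against 1695 and 1768 CPM in LPS-treated WT cells. Dusp1, a MAP kinase phosphatase, was lower in KO cells after LPS (-0.56, adjusted p = 0.0153), with 118 and 114 CPM against 187 and 157 CPM in WT cells. Sik1, Il10, Vegfa, Fosl1 and Fosl2 were higher there, the largest being Fosl1 (1.09, adjusted p = 0.00849); with the block 7 of the 18 were higher and 5 lower. None was called in the difference of the LPS response, and 2 were with the block, Il10 (0.70, adjusted p = 0.0213) and Fosl2 (0.75, adjusted p = 0.0272).

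Of 18 Notch pathway genes tested besides Lfng, 3 rose and 12 fell with LPS in each genotype, with median differences of -0.41 in KO and -0.35 in WT cells. Those that fell include the 2 other fringes, Mfng (-0.54 in KO cells, adjusted p = 5.73e-05) and Rfng (-1.01, adjusted p = 9.09e-06). Jag1, a Notch ligand, was at 73.3 and 71.8 CPM in LPS-treated KO cells against 65.3 and 55.1 CPM in LPS-treated WT cells, and without LPS at 18.9 and 20.47 CPM in KO against 7.83 and 8.67 CPM in WT cells (1.16, adjusted p = 0.00029). Its response was smaller in KO cells by 0.89, which was not called (adjusted p = 0.0715; 0.00245 with the block). Notch1 was the only gene of the list called between KO and WT cells after LPS (1.01, adjusted p = 0.000255), with 12.2 and 12.6 CPM in KO cells against 4.97 and 6.36 CPM in WT cells; with the block 3 were higher and 4 lower. Untreated Notch1 was at 3.69 and 4.10 CPM in KO against 2.28 and 2.07 CPM in WT cells.

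Of 12 other genes of the SNX9 family and its partners, 9 fell after LPS in KO cells and 8 in WT cells, with median differences of -0.34 and -0.30. No other gene of the list was called after LPS, except that with the replicate block Arpc2, a subunit of the Arp2/3 complex, rose in WT cells (0.15, adjusted p = 0.00345, against 0.134 without the block). Snx33 was at 4.09 and 4.85 CPM in LPS-treated KO cells against 4.25 and 4.24 CPM in LPS-treated WT cells, with no call between them (0.06, adjusted p = 0.826). Dnm2, the dynamin that cuts endocytic vesicles, was higher in KO cells after LPS (0.31, adjusted p = 0.0111) and untreated (0.27, adjusted p = 0.0269). Of the list 2 were higher in KO cells after LPS, Dnm2 and Pacsin2, and 1 lower, Fchsd2, and with the block Rab11a was higher too. Untreated, Dnm2 was the 1 gene called, against 4 with the block, all higher in KO cells.

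Of 14 paired receptor and signalling genes tested beside Pilrb1, 2 rose after LPS in KO cells, Pilra and Pilrb2, and 8 fell; in WT cells 1 rose, Pilra, and 6 fell (3 and 7 with the block). Median differences were -0.33 and -0.24. Pilra was at 7.85 and 7.33 CPM in LPS-treated KO cells against 4.05 and 3.46 CPM in LPS-treated WT cells (0.85, adjusted p = 0.00166). Untreated it was at 2.86 and 2.64 CPM in KO cells against 2.21 and 2.07 CPM in WT cells (0.26, adjusted p = 0.309). The kinase Syk was lower in KO cells after LPS (-1.52, adjusted p = 8.86e-05), as was the phosphatase Ptpn6 (-0.37, adjusted p = 0.00221), which had 188 and 181 CPM there against 234 and 245 CPM in WT cells. Both were lower in KO cells without LPS too. Untreated, Syk was at 58.8 and 52.1 CPM in KO against 108 and 93.3 CPM in WT cells. Ptpn6 was then at 397 and 398 CPM in KO against 466 and 468 CPM in WT cells. In all 3 of the 14 were higher in KO cells after LPS and 5 lower (4 and 8 with the block). None was called in the difference of the LPS response, and 3 were with the block, Pilra (0.60, adjusted p = 0.0287), Pilrb2 (0.87, adjusted p = 0.00804) and Syk (-0.67, adjusted p = 0.000424).

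Of the 3 other MIA family genes 1 passed the filter, Mia3, a protein of collagen export from the endoplasmic reticulum. It fell with LPS by 0.77 in KO (adjusted p = 3.85e-06) and by 0.73 in WT cells (adjusted p = 5.36e-06), and was at 52.3 and 56.7 CPM in LPS-treated KO cells against 52.2 and 53.8 CPM in LPS-treated WT cells.

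The genes lie on 4 chromosomes, with Areg, Lfng and Pilrb1 apart from each other on chromosome 5. Of 33 tested genes within 200 kb of a member, none was called in the difference of the LPS response, where 0.413% of all genes were. With the replicate block 3 of the 33 were called, Amz1 near Lfng (0.77, adjusted p = 0.00585) and, near Pilrb1, Pilra and Pilrb2, where 413 of all 10899 genes were. After LPS 3 were higher in KO than in WT cells, all near Pilrb1, and 3 lower (7 and 6 with the block). The 3 higher ones were Pilra, Pilrb2 and Zcwpw1, a histone methylation reader whose gene is 29.5 kb from Pilrb1. Zcwpw1, singled out here after its values were seen, was higher in KO cells by 2.19 after LPS (adjusted p = 1.48e-05) and by 2.11 without LPS (adjusted p = 2.42e-05).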

How the data were processed

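RNA-seq libraries of RAW 264.7 cells, 2 in each of 6 groups, were prepared with a TruSeq kit from total RNA, per the labels' protocols. The authors deposited CPM values per gene symbol, made with TopHat2 2.1.0, HTSeq and edgeR on mm10/GRCm38, per the submitters' processing notes; for the strand setting and annotation, no source used here gives a value. The 12 labelled columns were used and 4 columns that match no label were not. Each CPM value gave back whole reads (100% within 0.02 reads); 5 summary lines of the counter were removed, leaving 58.9 to 64.1% of alignments, and CPM was rescaled to gene reads.

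A gene was tested when 2 or more libraries reached 1 CPM (10899 genes), with limma 3.58.1 (trend) in R 4.3.3 on log2(CPM + 1), as 6 group means over 12 libraries, with Benjamini-Hochberg adjustment and a threshold of 0.05. Fold changes on this scale understate those of low genes. Ratios are on summed reads, with exact 95% intervals; intervals and floors (3 reads over a group) cover counting error only, since reads carry no molecular identifiers. edgeR 4.0.16 and DESeq2 1.42.0 on the recovered reads, another pseudocount, filters, scalings, left-out libraries and a replicate block were alternatives. The fits were tested on simulated data with well counted changed genes and libraries that were not paired. That check does not cover genes with few reads or libraries that deviate together. Same-numbered libraries deviated together in all 15 pairs of groups (correlation 0.468 to 0.737), so the numbers pair the libraries, although no day or batch is named in the labels. Replicates differed by more than sampling noise.

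The 7 genes and all lists were chosen with earlier results of these data known. The text names all 7 genes, the 5 genes nearest to each, and from each list the genes called in the difference of the LPS response or, with none, the 2 with the largest LPS response in KO cells; other list genes named are those called in the comparison described, chosen after their values were seen. A gene that this rule names is not reported here. Gene positions are from GENCODE M21 and promoter windows from RefSeq (GRCm38.p6), where all 7 genes matched.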

Additional observations from a re-analysis of the deposited data

Results flagged for a closer look

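The LPS response of Csf3 differed between the genotypes, with a difference of 1.32 on the log2(CPM + 1) scale (limma adjusted p = 0.00431, larger in KO cells with both replicate numbers). It was picked out because the difference between the 2 genotypes' responses was itself tested. Over the alternatives on the log2 scale it lay between 0.73 and 1.43, and with edgeR and DESeq2 on reads it was -0.09 and -0.11.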

How the results depend on the processing

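Genes called in the difference of the LPS response numbered 45, against 19 with a pseudocount of 0.25, 76 with no filter, 413 with the replicate block, 10 by edgeR and 80 by DESeq2; without 1 library they were 18 to 34. KO against WT cells after LPS gave 1510 calls, against 3438 with the replicate block and 914 with only the groups compared, and 871 to 934 without 1 library. KO against WT cells untreated gave 1055 calls, against 2685 with the replicate block and 477 to 548 without 1 library. LPS with inhibitor against LPS alone gave 121 calls, against 446 with the replicate block and 59 to 96 without 1 library. The inhibitor alone gave 0 calls by limma (111 genes at an unadjusted p under 0.05), 0 by edgeR, 2 by DESeq2, 4 with the replicate block and 0 to 1 without 1 library. Calls in the LPS responses of KO, WT and inhibitor-treated cells stayed within 1.5 times of 7266, 7332 and 7001. Under the authors' deposited scaling, KO against WT cells gave 514 higher and 1082 lower calls after LPS, against 675 and 835, and 324 and 1026 untreated, against 470 and 585.

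The difference of the LPS response turned negative under edgeR and DESeq2 for Serpinb2 (-1.14 and -0.60), Areg (-1.78 and -1.29), Pilrb1 (-2.19 and -1.69) and Csf3 (-0.0871 and -0.109); the cause was not tested. Of 716 alternative values of the 7 genes 691 kept their sign. Read depth limits Otor and Pilrb1 most, with at most 10 reads in any WT library. In LPS with inhibitor against inhibitor alone, the replicate block changed the call of none of the 7 genes.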
